A study of Mus musculus with 13 samples.

Results

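The genes described here are the ErbB receptors Egfr, Erbb2, Erbb3 and Erbb4 and 5 of the growth factors that bind them, Areg, Hbegf, Egf, Tgfa and Nrg1. They were taken by name, 9 of the 48795 genes in the table of RNA sequencing counts, and all 9 had a row. The tissue was the right brain hemisphere of mice at postnatal day 11, from which the olfactory bulb and the cerebellum had been removed. The 5 nlsYAP5SA mice (NexCre +/- YAP5SAnls +/-) carried 1 copy of a transgene for a nuclear, phospho-mutant YAP1 and the NEX-Cre allele, and the 5 control littermates (NexCre -/- YAP5SAnls +/-) carried the transgene without Cre. The 3 C57BL/6 mice were wild-type, of the same age and from other litters, and the strain background of all 13 mice was C57BL/6J. NEX-Cre acts in neuronal precursors that give rise to pyramidal neurons, so the transgene is switched on in a part of the cells of the hemisphere only. The control and nlsYAP5SA mice came from 2 matings, and no label ties a mouse to its litter.

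ErbB receptors are tyrosine kinases of the cell surface. A ligand brings receptors together in pairs, the pair phosphorylates itself, and adaptors then pass the signal to the RAS-ERK, PI3K-AKT and STAT routes. In the brain EGFR and its ligands are known for the growth of progenitors and astrocytes. Neuregulins with ERBB3 and ERBB4 are known there for oligodendrocytes and cortical interneurons. Several ErbB ligands, Areg among them, are known targets of YAP1 in epithelial cells.

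Of the 9 genes, Erbb2 was the one called higher in nlsYAP5SA mice, by 1.34-fold. It encodes the receptor with no known ligand, which pairs with the other 3. Erbb2 was 1 of 8 members tested, where 10.8% of all genes were called. The call was lost under 10 of 22 alternatives. The other receptors and the 4 ligands that could be tested did not pass the test, and Areg stood near the detection limit, with 0 to 9 counts a mouse. Hbegf was 0.872-fold the control level (adjusted p = 0.0719, edgeR), short of the threshold. Around the receptors, Stat3 and the ephrin receptor gene Epha2 were higher in nlsYAP5SA mice than in either reference group, with calls against C57BL/6 mice that were lost under some alternatives.

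The estimated counts of a mouse summed to between 20871566 and 25524349. Levels are given as CPM, the count of a gene relative to the size of its library after scaling with TMM factors, and replicates are separate mice by the labels. Yap1, the gene of the transgene's protein, was at 20.1 to 22.5 CPM in controls and 22.5 to 26.4 CPM in nlsYAP5SA mice (log2 fold change 0.23, standard error 0.06, adjusted p = 0.0361, edgeR). How far reads of the transgene are counted under Yap1 is not given in the sources used here, so this value cannot be assigned to the endogenous gene or the transgene. Ccn2, a target gene of YAP1 also called Ctgf, rose by 1.43 on the log2 scale. Y-linked genes were expressed in 5 of 5 controls, in 2 of 5 nlsYAP5SA mice and in 2 of 3 C57BL/6 mice, so sex is unevenly spread over the groups. None of the marker genes of neurons, astrocytes and oligodendrocytes was at 0 over the libraries. Summed markers of microglia did not overlap between controls (277 to 346 CPM) and nlsYAP5SA mice (389 to 510 CPM). Those of cortical excitatory neurons came close without overlap (1101 to 1232 CPM against 929 to 1099 CPM). Of these 6 neuron genes 1 was called lower, and their median log2 fold change was -0.14. The list holds Neurod6, whose locus carries the Cre allele by the study's methods, and the part of that allele in the sum was not tested.

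In controls the members spanned a wide range of levels. To compare genes, CPM were divided by the length of the merged exons in kilobases. By this measure Tgfa, a ligand of EGFR, was highest at 9.71 ± 0.618 CPM per kilobase (SD, n = 5). Erbb4 followed at 6.86 ± 1.89 and Hbegf at 4.07 ± 0.213, and each of these neighbours overlapped with the next. Egfr, at 2.43 ± 0.361 CPM per kilobase, lay below every Hbegf value and above every value of Nrg1 (1.29 ± 0.293). Erbb3 (0.893 ± 0.278) overlapped with both Nrg1 and Erbb2 (0.736 ± 0.0910), whereas every Nrg1 value lay above every Erbb2 value. Areg, at 0.138 ± 0.0904, and Egf, at 0.0494 ± 0.0126, lay below all of these and overlapped with each other. The order was the same in C57BL/6 mice, and in nlsYAP5SA mice it differed by 1 exchange, with Erbb2 (0.983 ± 0.0926) ahead of Erbb3 (0.837 ± 0.182), whose ranges overlapped.

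**Figure D1:**
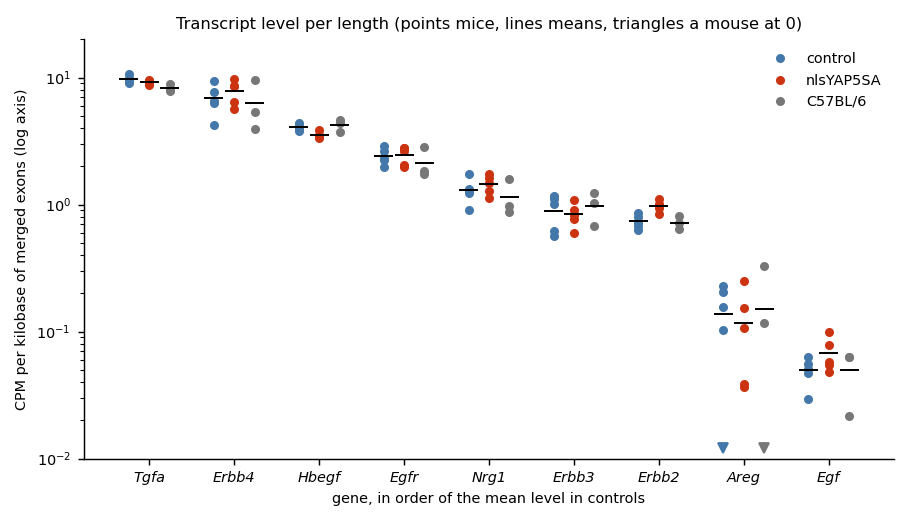
Level of each member in CPM per kilobase of merged exons on a log axis, ordered by the mean of the controls; points are mice, lines are group means, and a triangle marks a group with a mouse at 0. Tgfa, Erbb4 and Hbegf stand at the top with control means of 9.71, 6.86 and 4.07, and Areg and Egf lie far below the other genes.

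Within the family, Erbb4 made up 62.2 ± 4.28% of the summed receptor level per kilobase in controls, Egfr 22.6 ± 1.85%, Erbb3 8.11 ± 1.43% and Erbb2 7.16 ± 2.49% (SD, n = 5). Among the 5 ligands, Tgfa held 63.6 ± 0.533%, Hbegf 26.7 ± 1.35% and Nrg1 8.42 ± 1.42%, whereas Areg and Egf together stayed near 1%, at 0.934% and 0.324%. At this age the hemisphere thus held mainly transcripts of Erbb4 among these receptors and of Tgfa among these ligands. Nrg3, a ligand outside these 5, was at 52.9 CPM in controls, not divided by length, beside 63.0 CPM for Tgfa. In nlsYAP5SA mice the shares of Erbb4 (64.2 ± 3.15%) and Tgfa (64.1 ± 1.90%) overlapped with the control values. These shares depend on the exon models used for length, which come from a later annotation release than the counts.

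The first question is whether active YAP1 in the NEX lineage changed these transcripts. With edgeR's quasi-likelihood test over all 16315 genes tested, 1 of the 8 members tested was called at an adjusted p of 0.05 or less, where 10.8% of all genes were called (7.36% higher and 3.44% lower). The median log2 fold change of the 8 members was 0.11, beside -0.01 over all genes. In whole-hemisphere RNA, a change in the number of cells of a type and a change of RNA per cell cannot be told apart. The 4 receptors are taken first.

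Erbb2 lies on chromosome 11 (GRCm38, 98412470 to 98437716, plus strand). Its level was 4.44, 3.74, 3.54, 4.18 and 3.28 CPM in control replicates 1 to 5. In nlsYAP5SA replicates 1 to 5 it was 5.29, 5.19, 4.43, 5.75 and 4.94 CPM, on 103 to 132 counts a mouse. The groups touched at a single point, where nlsYAP5SA replicate 3 lay just under control replicate 1. The means were 3.84 ± 0.474 and 5.12 ± 0.482 CPM (SD, n = 5 each), which is 0.43 higher on the log2 scale (95% confidence interval 0.18 to 0.67, standard error 0.11, adjusted p = 0.0309 from edgeR). The C57BL/6 mice, at 4.202, 3.76 and 3.32 CPM, fell within the control range.

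The call for Erbb2 was not stable. It was kept under 12 of 22 alternatives and lost under 10, with log2 fold changes from 0.37 to 0.49 and adjusted p from 0.0143 to 0.400 (edgeR or DESeq2). Leaving out control replicate 2, 3 or 5 gave an adjusted p of 0.0671, 0.0629 and 0.0750, and leaving out nlsYAP5SA replicate 1, 2, 4 or 5 gave 0.0667, 0.0646, 0.0603 and 0.0614 (edgeR). When Y-linked expression entered the fit as a covariate, the log2 fold change was 0.41 (standard error 0.15, adjusted p = 0.236), and among the 5 controls and 2 nlsYAP5SA mice that express Y-linked genes it was 0.41 (standard error 0.17, adjusted p = 0.400, edgeR). Only 2 of 5 nlsYAP5SA mice express these genes, beside all 5 controls, so these fits cannot settle the part of sex in the difference. Erbb2 shares 9 bases with the end of Mien1 on the other strand, at 42.7 CPM in controls and 34.3 CPM in nlsYAP5SA mice (log2 fold change -0.31, adjusted p = 0.111, edgeR), and the strand setting of the counting is not given in the sources used here. Summed microglia and excitatory neuron markers did not overlap between these groups, with the limit given above for Neurod6. Summed ependymal markers were at 11.2 to 25.3 CPM in controls and 24.1 to 27.8 CPM in nlsYAP5SA mice, with 1 of 6 genes called higher. Of astrocyte genes 4 of 7 and of radial glia genes 3 of 6 were called higher, while 2 radial glia genes had lower means. Summed radial glia markers overlapped, at 343 to 460 CPM in controls and 355 to 555 CPM in nlsYAP5SA mice. The part of these markers in the Erbb2 difference was not tested.

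Since Erbb2 was the called member, its promoter was searched for the binding motif of TEAD factors, the DNA-binding partners of YAP1 (GGAATG), and for an AP-1 motif (TGANTCA), on both strands of RefSeq windows of 300 bases around gene starts. Of the 6 members with a window that could be used, only Erbb2 held the TEAD motif, which 14.7% of all 32851 windows held, and none held the AP-1 motif, which 7.81% held. The stretch of the window upstream of the gene is shown because it carries that match, in capitals (chr11:98412234-98412469 of GRCm38.p6, plus strand, 5′ to 3′). The match begins 74 bases before the annotated start, and a match of letters is not evidence of binding.
Erbb2 upstream: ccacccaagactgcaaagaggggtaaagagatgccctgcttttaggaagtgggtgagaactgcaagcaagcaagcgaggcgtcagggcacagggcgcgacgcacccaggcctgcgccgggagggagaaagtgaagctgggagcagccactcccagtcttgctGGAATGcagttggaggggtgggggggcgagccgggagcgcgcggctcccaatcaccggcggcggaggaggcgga

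Egfr, the receptor of the EGF-type ligands, lies on chromosome 11 (16752203 to 16918158, plus strand). It was at 22.3, 25.51, 32.9, 27.0 and 29.9 CPM in control replicates 1 to 5 and at 23.2, 30.1, 22.3, 31.7 and 31.9 CPM in nlsYAP5SA replicates 1 to 5. The groups lay over each other, with means of 27.5 ± 4.08 and 27.8 ± 4.70 CPM. The log2 fold change of 0.03 had a 95% confidence interval of -0.24 to 0.30 (adjusted p = 0.912, edgeR). C57BL/6 mice held the lowest values, 20.8 and 19.9 CPM, and a remaining value of 32.0 CPM inside the control range.

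Erbb4, a neuregulin receptor with an active kinase that is typical of cortical interneurons, lies on chromosome 1 (68032186 to 69108059, minus strand). Control replicates 1 to 5 gave 52.6, 78.3, 116, 81.3 and 95.3 CPM, and nlsYAP5SA replicates 1 to 5 gave 69.7, 120, 79.9, 107 and 107 CPM. The C57BL/6 mice were spread still more widely, at 66.5, 48.3 and 119 CPM. The groups overlapped throughout, and the log2 fold change between nlsYAP5SA and control mice was 0.21 (standard error 0.19, adjusted p = 0.552, edgeR). Summed interneuron markers were at 607 to 679 CPM in controls and 607 to 692 CPM in nlsYAP5SA mice, with 1 of the 8 genes called lower, and their part in the Erbb4 values was not tested.

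Erbb3, the neuregulin receptor whose own kinase is weak, lies on chromosome 10 (128567523 to 128589652, minus strand). It was at 3.74, 3.42, 6.999, 6.06 and 6.64 CPM in control replicates 1 to 5 and at 5.02, 6.55, 5.42, 3.57 and 4.61 CPM in nlsYAP5SA replicates 1 to 5. C57BL/6 mice gave 4.07, 6.18 and 7.45 CPM. Controls thus fell into a low pair and 3 higher mice, and nlsYAP5SA mice spread over much of the same range (log2 fold change -0.08, standard error 0.22, adjusted p = 0.871, edgeR). The low pair, control replicates 1 and 2, also had the lowest summed markers of myelinating oligodendrocytes among controls, 2039 and 1901 CPM against 3021 to 3269 CPM in the other 3. Among nlsYAP5SA mice, replicate 4 was lowest and replicate 2 highest in both Erbb3 and these markers (1191 and 2645 CPM). In C57BL/6 mice replicate 1 was lowest in both, but Erbb3 was highest in replicate 3 and the markers in replicate 2 (4303 CPM, against 3106 CPM in replicate 3). What this has to do with the level of Erbb3 was not tested.

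**Figure D2:**
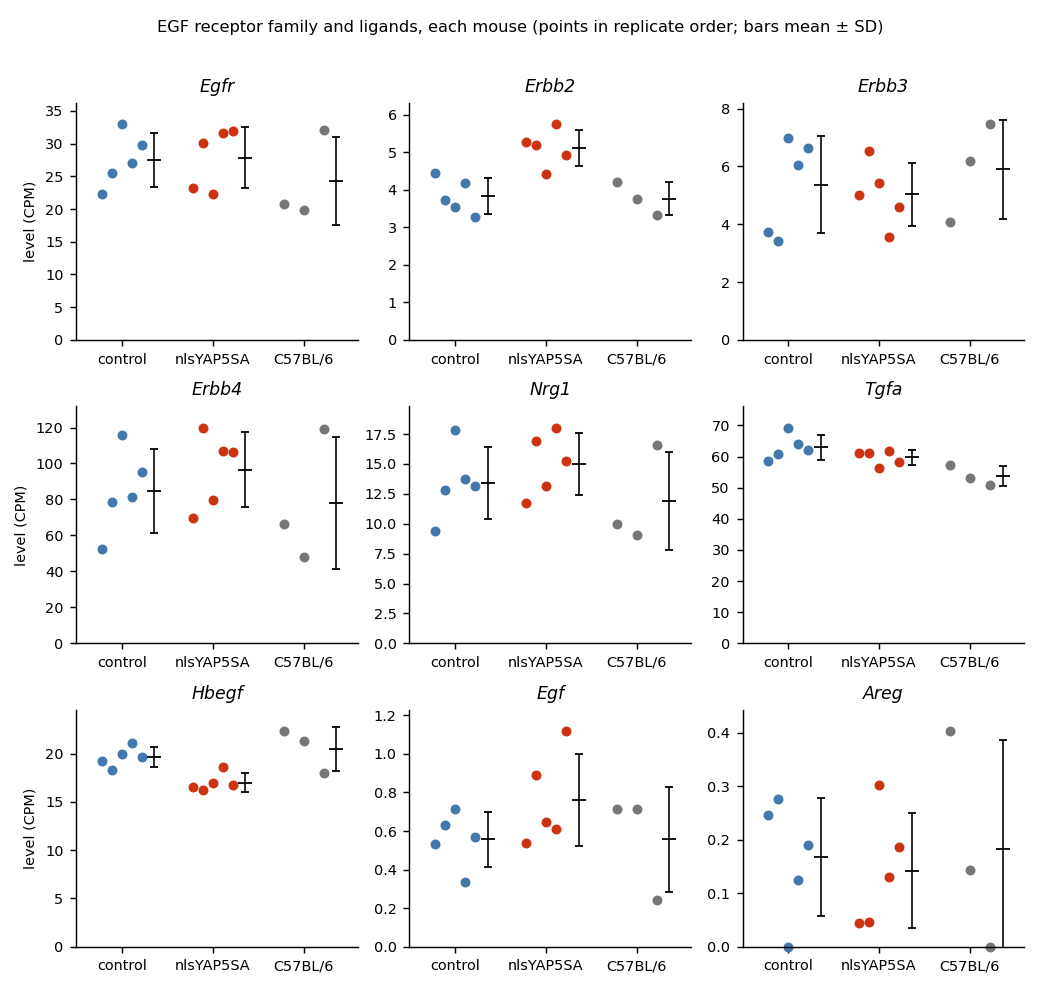
Level of each member in CPM by mouse, in order of replicate number within a group, with the group mean and SD as bars beside the points. Erbb2 is higher in nlsYAP5SA mice (5.12 against 3.84 CPM), with a single point of contact with controls, Hbegf means are 19.7 CPM in controls and 17.0 CPM in nlsYAP5SA mice with 1 mouse of each crossing over, and the C57BL/6 mice lie below all controls for Tgfa.

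Of the ligands, Hbegf, which encodes a membrane-anchored ligand of EGFR and ERBB4 and lies on chromosome 18, varied little between mice. It was at 19.3, 18.3, 19.99, 21.1 and 19.7 CPM in control replicates 1 to 5 and at 16.5, 16.2, 17.0, 18.6 and 16.7 CPM in nlsYAP5SA replicates 1 to 5. Only nlsYAP5SA replicate 4 and control replicate 2 crossed between the groups. The means, 19.7 ± 1.03 and 17.0 ± 0.956 CPM, gave a log2 fold change of -0.20 (95% confidence interval -0.34 to -0.06, adjusted p = 0.0719, edgeR). Without nlsYAP5SA replicate 4 the value was -0.23 and was called (adjusted p = 0.0360, edgeR), as it was with DESeq2 (adjusted p = 0.0444). Hbegf was called under 3 of 22 alternatives and not under 19, with an adjusted p of up to 0.715 (edgeR). Summed endothelial markers, at 148 to 169 CPM in controls and 124 to 150 CPM in nlsYAP5SA mice, overlapped slightly, with 2 of the 5 genes called lower, and their part in the Hbegf values was not tested.

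Tgfa, on chromosome 6 (86195223 to 86275719, plus strand), likewise varied little between mice. Controls gave 58.6, 60.8, 69.2, 64.1 and 62.3 CPM, nlsYAP5SA mice 61.2, 61.3, 56.4, 61.7 and 58.2 CPM, and C57BL/6 mice 57.4, 53.0 and 50.8 CPM. The C57BL/6 mice were the lowest group, whereas nlsYAP5SA and control mice overlapped. The log2 fold change of nlsYAP5SA against control mice was -0.06 with a narrow 95% confidence interval of -0.17 to 0.04 (adjusted p = 0.476, edgeR).

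Nrg1, a ligand of ERBB3 and ERBB4 on chromosome 8 (31814551 to 32884029, minus strand), was at 9.38, 12.8, 17.9, 13.8 and 13.1 CPM in controls. It was at 11.7, 16.9, 13.2, 18.02 and 15.3 CPM in nlsYAP5SA mice and at 10.01, 9.04 and 16.6 CPM in C57BL/6 mice. The groups overlapped (log2 fold change of nlsYAP5SA against control 0.18, standard error 0.16, adjusted p = 0.521, edgeR). Nrg1 has many isoforms, which counts per gene do not separate.

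Egf and Areg were at the edge of what this depth could measure. Egf, on chromosome 3 (129677565 to 129755316, minus strand), had 8 to 17 counts in a control mouse and 12 to 24 in an nlsYAP5SA mouse. Its log2 fold change of 0.45 had a 95% confidence interval from -0.14 to 1.04 (adjusted p = 0.337, edgeR), so neither a doubling nor no change lay outside it. Areg, which encodes amphiregulin, on chromosome 5 (91139599 to 91148432, plus strand), had 6, 7, 0, 3 and 4 counts in control replicates 1 to 5, 1, 1, 7, 3 and 4 in nlsYAP5SA replicates 1 to 5, and 9, 3 and 0 in C57BL/6 mice. It did not pass the filter on low counts. A count of 0 allows up to 3 counts, or 0.126 CPM in control replicate 3, and such limits cover counting error only. By an exact two-sided permutation test, the means of 0.142 CPM in nlsYAP5SA and 0.168 CPM in control mice did not differ beyond their spread (p = 0.714, smallest possible 0.00794).

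**Figure D3:**
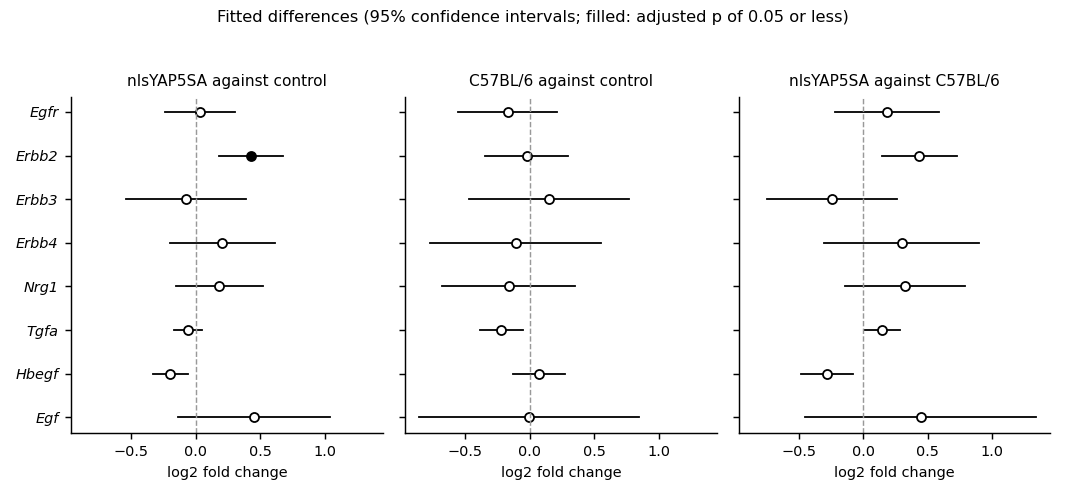
Fitted log2 fold changes of the 8 members tested in each of the 3 comparisons; lines are 95% confidence intervals, and the filled point has an adjusted p of 0.05 or less. Erbb2 between nlsYAP5SA and control mice (0.43) is the filled point, and the interval of Egf is the widest in each comparison.

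The second comparison asks whether the transgene without Cre, in these litters, differed from unrelated C57BL/6 mice. None of the 8 members was called, where 0.169% of 16546 genes were called (0.0484% higher and 0.121% lower), and DESeq2 called none either. At an unadjusted p under 0.05 there was 1 member, Tgfa. All 3 C57BL/6 mice lay below all 5 controls for Tgfa (log2 fold change -0.22, 95% confidence interval -0.39 to -0.05, adjusted p = 0.9996, edgeR), as was so for 1.6% of all genes. The median log2 fold change of the members was -0.07.

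The third comparison sets the same nlsYAP5SA mice against the C57BL/6 mice. Again none of the 8 members was called by edgeR or DESeq2, where edgeR called 6.38% of 16641 genes (4.16% higher and 2.22% lower), and 3 members had an unadjusted p under 0.05. For Erbb2 all 5 nlsYAP5SA mice lay above all 3 C57BL/6 mice, as was so for 8.51% of genes, with a log2 fold change of 0.44 (95% confidence interval 0.14 to 0.73, adjusted p = 0.0859, edgeR). On the log2 scale Hbegf was at -0.28 (standard error 0.09, adjusted p = 0.102) and Tgfa at 0.14 (standard error 0.06, adjusted p = 0.231, edgeR). Without C57BL/6 replicate 3, 2 members were called, Hbegf at -0.37 and Nrg1 at 0.64 (adjusted p = 0.0282 and 0.0419, edgeR), where 1757 of 16895 genes were called. The comparisons share mice, so their values are not independent of each other.

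The spread of Egfr, Erbb4 and Nrg1 followed a common pattern in controls and in C57BL/6 mice. In all 3 genes control replicate 1 was the lowest and control replicate 3 the highest control, and C57BL/6 replicate 2 was the lowest of its group and replicate 3 the highest. These genes have long transcripts, with 11.3, 12.4 and 10.4 kilobases of merged exons against a median of 4.63 kilobases over genes with at least 50 counts. The share of a library's counts in the other genes with at least 10 kilobases of merged exons, 1551 in number, ran from 12.7% in control replicate 1 to 16.7% in control replicate 3. In C57BL/6 mice it ran from 12.2% in replicate 2 to 18.1% in replicate 3, and in nlsYAP5SA mice from 14.2% in replicate 3 to 16.4% in replicate 2. In controls and C57BL/6 mice the same mice were thus lowest and highest in these 3 members and in long genes at large. Egf, with 11.3 kilobases of merged exons but at most 24 counts, did not follow this order, since its lowest control was replicate 4 (0.335 CPM) and its lowest C57BL/6 mouse replicate 3 (0.243 CPM). In nlsYAP5SA mice the order was not kept throughout, since Erbb4 and Nrg1 were lowest in replicate 1, Nrg1 was highest in replicate 4 and Egfr was highest in replicate 5.

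When the fit was given offsets from a robust loess curve over GC content and length, the standard error of the log2 fold change fell from 0.12 to 0.06 for Egfr, from 0.19 to 0.08 for Erbb4 and from 0.16 to 0.11 for Nrg1, and none of the 3 was called (adjusted p = 0.858, 0.287 and 0.490, edgeR). Erbb2 kept a value of 0.46 (adjusted p = 0.0143). Whether the share of long genes reflects the RNA, the library or the cells of a hemisphere was not tested.

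**Figure D4:**
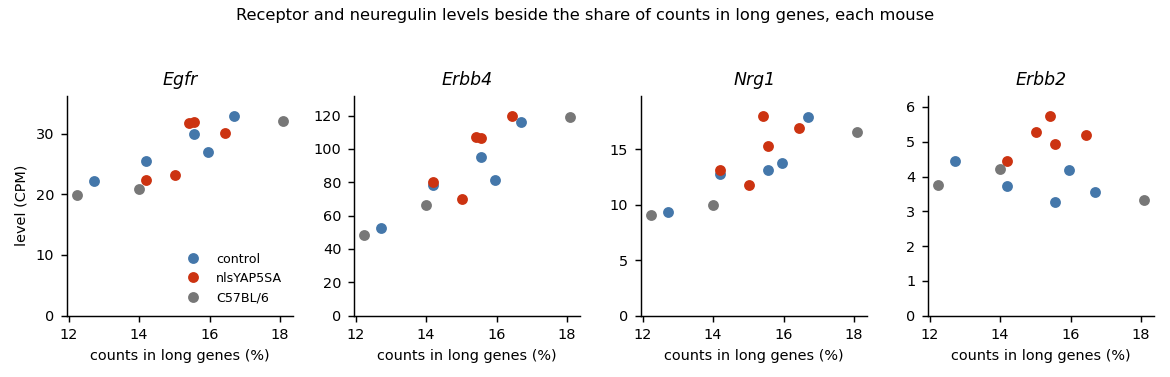
Level of Egfr, Erbb4, Nrg1 and Erbb2 in CPM against the percent of each library's counts in other genes with at least 10 kilobases of merged exons; points are mice. Mice at the low end of the x axis (12.2% and 12.7%) hold the lowest Erbb4 and Nrg1 levels, and Erbb2 shows no such order.

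Genes whose levels ran most alike to each member but Areg, over the 13 mice, were sought among genes with at least 50 counts on average. The mean of each group was subtracted before the closest genes were taken. For Erbb4 these were Kcnma1, Med13 and Man1a2 (Pearson's r = 0.995 for each on the log2 scale), for Nrg1 Pclo, Kmt2c and Arap2 (0.989, 0.986 and 0.985) and for Egfr Cep192, Clstn2 and Soat1 (0.974, 0.971 and 0.971). For Erbb3 they were Mfn1, Map7 and Syne1 (0.966, 0.945 and 0.944). Erbb2 (Shisa2, Rpp40 and Sdc1, 0.914 at most), Hbegf (Inhba, Sox18 and Tcf7, 0.906), Tgfa (Pou3f2, Cdc14a and Nol10, 0.893) and Egf (Malsu1, Rnf149 and Rrp8, 0.912) had less close neighbours. All genes of a mouse come from 1 library, with its depth and its share of counts in long genes, and the values are a description of 13 mice.

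Genes that act with the receptors were then described by lists. Of 6 other ligands, Nrg2, Nrg3 and Nrg4 could be tested against controls, none was called and none had an unadjusted p under 0.05 in edgeR, nor did DESeq2 call any. The smallest p was that of Nrg3, a ligand of ERBB4, at 52.9 ± 6.23 CPM in controls and 56.9 ± 1.64 CPM in nlsYAP5SA mice (log2 fold change 0.12, standard error 0.07, adjusted p = 0.325, edgeR). The list's median was -0.12, and Ereg and Epgn had at most 2 and 5 counts in any mouse. Of 6 genes for the shedding and trafficking of ligands, among them the sheddases Adam10 and Adam17, none was called by edgeR or DESeq2. The median log2 fold change of this list was 0.10, and 1 gene had an unadjusted p under 0.05. This was Rhbdf2, a partner of ADAM17, at 0.819 ± 0.112 CPM in controls and 1.22 ± 0.281 CPM in nlsYAP5SA mice (log2 fold change 0.59, standard error 0.20, adjusted p = 0.0860, edgeR).

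Of 10 genes for feedback on and turnover of the receptors, 3 rose in nlsYAP5SA mice, beside 7.36% of all genes, and none fell, with a median log2 fold change of 0.11. Errfi1, an inhibitor of EGFR and ERBB2, rose from 21.6 ± 1.57 CPM in controls to 26.6 ± 1.57 CPM (log2 fold change 0.31, adjusted p = 0.0108, edgeR). Lrig1, which promotes the degradation of ErbB receptors, rose from 52.6 ± 1.95 to 60.7 ± 2.33 CPM (0.22, adjusted p = 0.00965), and its relative Lrig3 from 1.69 ± 0.261 to 2.72 ± 0.280 CPM (0.70, adjusted p = 0.00838, edgeR). In all 3 genes every nlsYAP5SA mouse lay above every control, as was so for 6.03% of all genes, and 4.23% lay wholly below. With the Y-linked covariate none of the 3 was called (adjusted p = 0.216, 0.163 and 0.140, edgeR), at log2 fold changes of 0.24, 0.19 and 0.61. Of the markers, 5 of 6 genes of microglia, 4 of 7 of astrocytes and 3 of 6 of radial glia were called higher in nlsYAP5SA mice as well. In radial glia 2 genes had lower means and the summed markers overlapped, as given above. The part of these markers in the values of Errfi1, Lrig1 and Lrig3 was not tested. Against C57BL/6 mice edgeR called none of this list, with 3 genes at an unadjusted p under 0.05, and DESeq2 called 1.

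Of 28 adaptors and signal relays, 2 rose and 1 fell, shares near those of all genes (7.36% and 3.44%), and the median log2 fold change was 0.03. Stat3, a transcription factor that is activated by EGFR and by cytokine receptors, rose from 39.8 ± 2.62 to 56.8 ± 2.55 CPM, with every nlsYAP5SA mouse above every control (log2 fold change 0.53, standard error 0.05, adjusted p = 6.27e-05, edgeR). It was also higher than in C57BL/6 mice (0.51, adjusted p = 0.00180, edgeR), a call that was lost under 2 of 20 alternatives, with an adjusted p of up to 0.268 among mice with Y-linked expression (log2 fold change 0.45), and against controls it was called under all 22 alternatives. Astrocyte markers were summed at 3272 to 5776 CPM in controls and 5122 to 7088 CPM in nlsYAP5SA mice, with 4 of the 7 genes called higher. Summed microglia markers did not overlap between these groups and summed radial glia markers did, as given above. Their part in the differences of Stat3 and of the other relay and ERK genes named here was not tested. Gab1, a docking protein below ErbB receptors, rose from 27.3 ± 2.64 to 34.6 ± 2.68 CPM (0.35, adjusted p = 0.00886, edgeR) and was not called with the Y-linked covariate (adjusted p = 0.155). Hras, a small GTPase of the ERK route, fell from 96.7 ± 11.1 to 76.9 ± 6.68 CPM (-0.32, adjusted p = 0.0302, edgeR). The call for Hras was lost without control replicate 2 (adjusted p = 0.0723, edgeR) and without nlsYAP5SA replicate 2, 4 or 5 (adjusted p = 0.0780, 0.0534 and 0.0827).

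Of 10 transcripts that rise and fall with ERK activity in many cells, 2 rose and 1 fell, beside 7.36% and 3.44% of all genes, and the median log2 fold change was -0.01. At an unadjusted p under 0.05 there were 7 of the 10, beside 3983 of the 16315 genes tested. Epha2, an ephrin receptor, rose from 2.16 ± 0.521 to 4.65 ± 0.909 CPM, with no overlap (log2 fold change 1.12, standard error 0.19, adjusted p = 0.00173, edgeR), and was higher than in C57BL/6 mice too (0.83, adjusted p = 0.0419, edgeR). Against controls the call was kept under 21 of 22 alternatives and lost among mice with Y-linked expression (1.02, adjusted p = 0.120, edgeR). The call against C57BL/6 mice was lost under 10 of 20 alternatives, with an adjusted p of up to 0.670 (edgeR). Among these were the fits without C57BL/6 replicate 1 or 2 (adjusted p = 0.159 and 0.0757) or nlsYAP5SA replicate 1, 2, 4 or 5 (adjusted p from 0.0713 to 0.0921, edgeR). Ccnd1, the gene of cyclin D1, rose from 53.8 ± 3.47 to 66.3 ± 8.503 CPM (0.31, adjusted p = 0.0272, edgeR), with an overlap between the groups. Without control replicate 1, 2, 3 or 4 or nlsYAP5SA replicate 2 or 5, Ccnd1 was not called (adjusted p from 0.0523 to 0.0690, edgeR). Etv4, a transcription factor of the ETS family, fell from 16.7 ± 1.51 to 13.1 ± 1.60 CPM (-0.34, adjusted p = 0.0399, edgeR). Its call was lost without control replicate 1, 2, 4 or 5 or nlsYAP5SA replicate 1, 2 or 5 (adjusted p from 0.0536 to 0.0910, edgeR). With the Y-linked covariate Hras, Ccnd1 and Etv4 were not called (adjusted p = 0.312, 0.163 and 0.517, edgeR). In all 5 pathway lists, no gene was called by edgeR or DESeq2 between C57BL/6 and control mice, and none had an unadjusted p under 0.05. Against C57BL/6 mice, Stat3 and Epha2 were the genes of the relay and ERK lists that edgeR called.

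**Figure D5:**
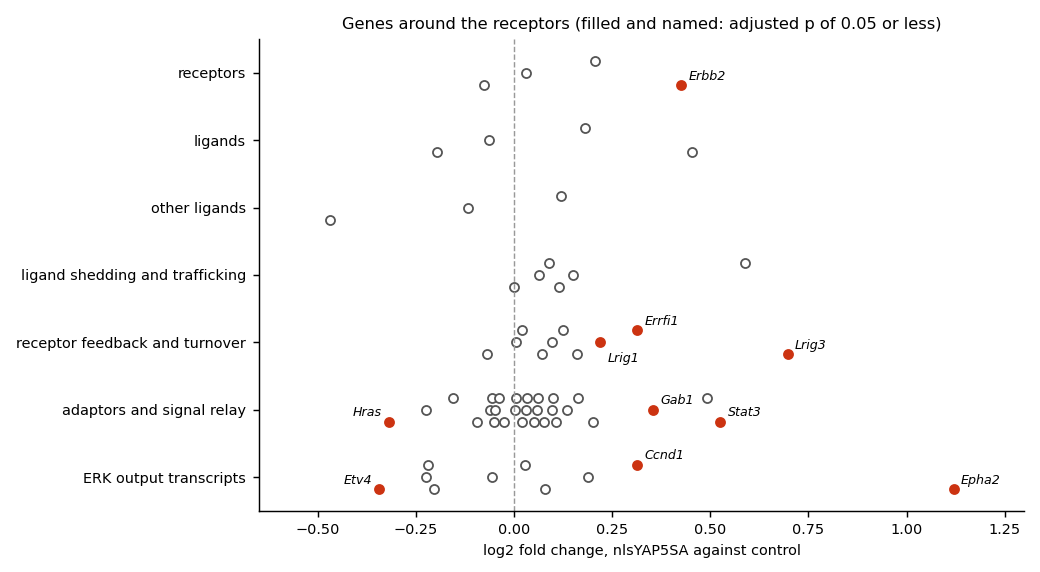
Log2 fold change of nlsYAP5SA against control mice for each tested gene of the receptor, ligand and pathway lists; filled and named points have an adjusted p of 0.05 or less. Epha2 (1.12), Lrig3 (0.70) and Stat3 (0.53) lie farthest to the right among the named genes, and Hras and Etv4 to the left.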

How the data were processed

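RNA from the right hemisphere of 13 mice was sequenced from mRNA libraries (KAPA mRNA HyperPrep). Per the labels and the methods of the study, the authors removed adapters (CutAdapt 1.5), aligned to GRCm38 and its Ensembl transcripts (STAR) and deposited the expected counts per gene of RSEM 1.3.0, with no normalization. RSEM divides reads that match several genes among them, which can blur near-identical copies.

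Expected counts were rounded to whole numbers here. Groups and replicate numbers are those of the labels. Counts were scaled with TMM and filtered with filterByExpr (minimum count 10, minimum total 15) in edgeR 4.0.16 (R 4.3.3, limma 3.58.1), then compared between pairs of groups with its two-sided quasi-likelihood test over all genes, with Benjamini-Hochberg adjustment and a threshold of 0.05. The standard error is the log2 fold change over the square root of the F statistic. DESeq2 1.42.0 was an alternative, as were other scalings, filters, covariates for Y-linked genes and Ttr, offsets for GC content and length (loess span 0.5), the replicate number as a block and leaving out each mouse. The restriction to mice with Y-linked expression (summed CPM above 10) was added after these levels were seen. Areg, below the filter, was compared with an exact permutation test. Positions and exon lengths are from GENCODE M21 (GRCm38), a later release than that counted on; promoter windows are from RefSeq (GRCm38.p6). The likeness of genes used log2(CPM + 0.5). Figures were drawn with matplotlib 3.10.9 in Python 3.11.15.

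Members and lists were chosen with earlier results of these data known. Every member is named, with every called gene of the pathway lists and, for a list with none called, the gene with the smallest p. Libraries held 20871566 to 25524349 counts, and replicates differed beyond sampling noise. The steps were tested on simulated counts. Same-numbered mice of different groups did not deviate together, so numbers were not taken as pairs.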

Additional observations from a re-analysis of the deposited data

Results flagged for a closer look

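In 1 of 36 groups of 5 mice checked among the named genes, a mouse stood apart from the rest of its group by Dixon's criterion, which chance alone meets in about 1 group in 20. For Lrig1, control replicate 2 had 49.1 CPM, below the other controls at 53.2 to 53.9 CPM.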

How the results depend on the processing

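The number of members called between nlsYAP5SA and control mice, 1, was 0 without a filter on low counts, with the Y-linked covariate and among mice with Y-linked expression. It was 2 with DESeq2 (Erbb2 and Hbegf) and 3 with an ordinary loess offset (Erbb2, Hbegf and Tgfa), and 0 to 1 when each mouse was left out. Of 16315 genes tested, 2259 were called with DESeq2 and 3407 with the ordinary offset, in place of 1761. The ordinary offset also moved the median log2 fold change of all genes from -0.01 to -0.06. Between nlsYAP5SA and C57BL/6 mice, the 0 members called became 1 with all 13 mice in a single fit (Erbb2). The number was 1 with an ordinary loess offset (Hbegf) and with a robust one (Erbb2), and 0 to 2 when each mouse was left out. Over all genes the single fit called 1522 there and these offsets 2261 and 1725, in place of 1061. Between C57BL/6 and control mice the number of members called stayed 0. With the replicate block Erbb2 kept its call at 0.43 (adjusted p = 0.0484, edgeR), 1239 genes were called in place of 1761, and 26 in place of 1061 against C57BL/6 mice; 15 in place of 28 between C57BL/6 and control mice. The block ended the calls of Lrig1 and Etv4 against controls (adjusted p = 0.0541 and 0.106) and of Stat3 and Epha2 against C57BL/6 mice (adjusted p = 0.156 and 0.353, edgeR). Correlations of same-numbered mice ran from -0.24 to 0.34, so the block rests on a number alone.

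Among all genes of the first comparison, 68.1% of the 1761 calls were higher. This was 87.8% of 542 calls with the Y-linked covariate, 92.2% of 332 among mice with Y-linked expression and 38.4% of 3407 with the ordinary loess offset, while the share of higher calls stayed within 10 percentage points with DESeq2 (60.4% of 2259). Against C57BL/6 mice, 65.2% of 1061 calls were higher, beside 91.5% of 47 among mice with Y-linked expression, 39.6% of 2261 with the ordinary offset, 1725 calls with the robust one, 1596 with DESeq2 and 402 to 1757 when each mouse was left out. Between C57BL/6 and control mice, 28 calls became 16 with at least 10 counts in every sample, 59 with DESeq2 and 44 with all 13 mice in a single fit.

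Directions turned only for members in comparisons where they were not called. Between nlsYAP5SA and control mice Egfr was -0.0028 with the Y-linked covariate, -0.0214 among mice with Y-linked expression, -0.0397 and -0.0212 with the ordinary and robust offsets and -0.0335 to 0.1001 when each mouse was left out, and Erbb3 was -0.204 to 0.0308 when each was left out. Between C57BL/6 and control mice, Erbb4 was 0.14 with the Y-linked covariate and among mice with Y-linked expression, Nrg1 was 0.0028 with that covariate, and Egf was 0.0706 with the Ttr covariate and 0.0047 and 0.0051 with the offsets. When each mouse was left out there, Erbb2 ran from -0.112 to 0.04996, Erbb3 from -0.0687 to 0.356, Erbb4 from -0.564 to 0.139 and Egf from -0.237 to 0.354. The cause of these shifts was not tested.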
